A study of Caenorhabditis elegans with 2 samples.

Results

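The genes described here encode the 8 subunits of the DREAM complex of the nematode Caenorhabditis elegans, and the measurement is where the AT-hook protein ATTF-6 was found at them by ChIP-seq. The members are efl-1, dpl-1, lin-35, lin-9, lin-37, lin-52, lin-53 and lin-54, taken by name from the Ensembl annotation of WBcel235, and they are 8 of 19973 protein-coding genes on the 6 chromosomes. They were chosen by name and not by a threshold on these values. Earlier results of these data were known when the members, the other gene lists and the motifs below were chosen. The samples are 2 biological replicates of 1 group, strain RW12231 (allele st12231), in which a CRISPR insertion fused TY1, EGFP and 3xFLAG tags to the endogenous attf-6 gene. The animals were young adults of 64 hours, grown from larvae starved at the L1 stage after bleaching, and chromatin of whole animals was precipitated through GFP. It was sheared to fragments of 200 to 800 bp, which are longer than some of the summit distances given below. Both replicates are of this 1 engineered strain. Because whole animals were used, all tissues and the germline are mixed in each value. The control experiment that the labels name was not analysed here. No expression values were used, so the labelled stage was not checked against marker genes. With no second group, and with 2 replicates, no test between groups can be made, and the values below are descriptions read against all protein-coding genes.

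DREAM joins an E2F and DP heterodimer to a pocket protein of the retinoblastoma family and to the MuvB core. In C. elegans, EFL-1 is the E2F and DPL-1 its DP partner, and LIN-35 is the pocket protein. LIN-9, LIN-37, LIN-52, LIN-53 and LIN-54 form the MuvB core, of which LIN-54 binds DNA directly. The complex holds down cell cycle and germline genes in somatic cells, and many of its genes were found as synMuv B genes, whose loss gives extra vulvae together with loss of a synMuv A gene. AT-hook proteins such as ATTF-6 contact the minor groove of A/T-rich DNA through a short basic motif.

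ATTF-6 summits of the conservative list, the smaller of the deposited joint thresholded lists, lay just upstream of 5 of the 8 genes. The share of all protein-coding genes with a summit in the promoter was 4.28%. The sequences under the 4 of these 5 summits whose letters can be shown are given first, because they show how different the marked stretches are. Each is the summit base with the 50 bp on either side, cut back to bases outside annotated genes, written 5′ to 3′ on the strand of the DREAM gene from the RefSeq copy of WBcel235, which is the ce11 assembly. Capitals mark exact matches on either strand to the motifs searched, which were 4 E2F-type sequences (TTTCCCGC, TTTCGCGC, TTTGCCGC and TTTGGCGC), the CHR-type sequence TTTGAA or its variant TTCGAA, and the A/T-only words AAATTT or AATATT or TATATA.
efl-1, chrV:16965806-16965906, minus strand: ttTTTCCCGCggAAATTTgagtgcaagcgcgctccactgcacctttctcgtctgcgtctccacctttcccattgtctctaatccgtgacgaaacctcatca
lin-54, chrIV:13240652-13240743, plus strand: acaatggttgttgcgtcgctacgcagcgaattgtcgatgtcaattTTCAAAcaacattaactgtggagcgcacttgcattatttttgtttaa
lin-9, chrIII:8904198-8904298, minus strand: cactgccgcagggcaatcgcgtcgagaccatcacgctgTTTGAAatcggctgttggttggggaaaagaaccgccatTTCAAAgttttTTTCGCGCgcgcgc
lin-52, chrIII:9824751-9824827, minus strand: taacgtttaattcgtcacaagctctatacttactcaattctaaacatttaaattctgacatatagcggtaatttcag
The efl-1 stretch holds TTTCCCGC beside AAATTT, and the lin-9 stretch holds TTTCGCGC and 2 CHR-type matches. The lin-54 stretch holds 1 CHR-type match and the lin-52 stretch none of the motifs.

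In the conservative list, 6 of the 8 DREAM genes had a summit between 1000 bp upstream of the start and the gene end, where 6.35% of all protein-coding genes had one. In promoters, which reached from 1000 bp before a protein-coding transcript's start to 200 bp after it, it was 5 of 8, against 4.28% of all genes. The gene windows ran from 1668 bp at lin-52 to 8929 bp at lin-35, while promoter windows varied only with the annotated starts. With the gene start alone in place of every transcript start the promoter count was also 5, against 3.96% of all genes. The 5 genes with a promoter summit were efl-1, lin-54, lin-53, lin-52 and lin-9, and the sixth gene, lin-35, was marked at its other end. The genes with no conservative summit were dpl-1 and lin-37. These conservative summits were the strongest joint ranked regions of their windows in all 6 cases. That is largely set by the selection, since the conservative list had a median signal of 80.8, against 19.6 over all joint ranked regions.

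**Figure D1:**
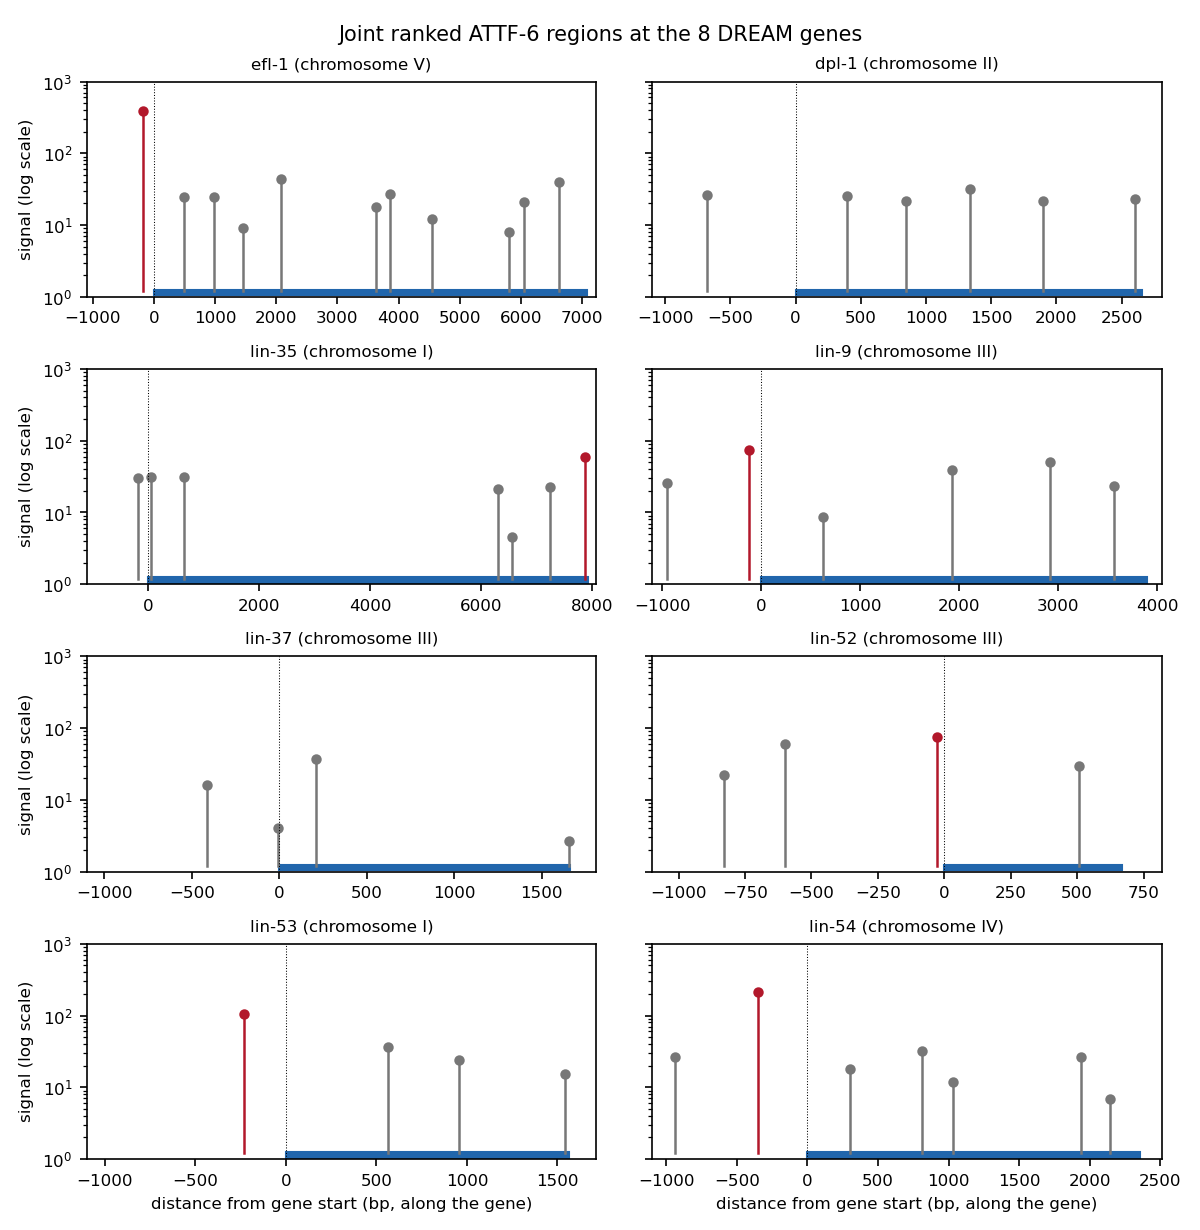
The plots show the joint ranked regions in the window of each DREAM gene, with the distance of the summit from the gene start on the x axis and the deposited signal on a log y axis. Red stems are regions of the conservative list, grey stems other ranked regions, and the blue bar is the gene. In efl-1 and lin-54 a single upstream region stands far above the others, while dpl-1 and lin-37 have no red stem.

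The E2F gene efl-1 carried the strongest signal of the set. Its gene lies on chromosome V from 16958590 to 16965675 on the minus strand, and the region spanned 16965749 to 16965968, a width of 220 bp. The summit at 16965856 lay 181 bp upstream of the start in intergenic sequence. The deposited signal was 387, at the floor of the global irreproducible discovery rate (IDR) of 1e-05. In the joint list a low IDR means that a region ranked high and alike in both replicates. An IDR from 1 replicate's own list does not compare the 2 replicates. The efl-1 region was the 88th strongest of the 2134 conservative regions. In the replicates' own thresholded lists the region had a signal of 232 in replicate 1 and 157 in replicate 2, with summits 0 and 10 bp away. Both replicates therefore placed it at the same spot, with the higher value in replicate 1. The other 10 ranked regions of the efl-1 window all lay inside the gene, in introns apart from 1 in a coding exon, and the strongest of them had 43.5, so the upstream region was 8.90 times as strong. The nearest other gene, the F-box gene fbxa-90, is transcribed away from efl-1 and starts 958 bp from the summit.

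Its partner dpl-1, on chromosome II from 9169910 to 9172565, had no such region. The strongest of its 6 ranked regions had a signal of 31.7 and a global IDR of 0.299, with its summit at 9171250 in a coding exon. That place also lies in an intron of T23G7.2, a gene on the opposite strand that contains dpl-1 whole. The replicates' strongest regions in the dpl-1 window had signals of 20.7 in replicate 1 and 19.6 in replicate 2 and lay 1353 and 896 bp past the start, so they were not the same place. Neither was in a thresholded list. The 6 joint signals ran from 21.4 to 31.7, close to one another along the gene.

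The pocket protein gene lin-35, on chromosome I from 5807709 to 5815637, had its conservative summit 7868 bp past the start, in its 3′ UTR and 60 bp before the gene end. The signal was 59.3 with an IDR of 0.00684. The gene meets hmg-3, which encodes a subunit of the FACT histone chaperone, tail to tail with 29 bp shared, and the summit lay 32 bp from the annotated end of hmg-3. This region was in neither replicate's thresholded list. In the ranked lists it had 31.5 in replicate 1, with the summit 1 bp away, and 29.7 in replicate 2, with the summit 61 bp away. At the 5′ end of lin-35 a ranked region 182 bp upstream had a signal of 30.5 and an IDR of 0.0350, short of the deposited threshold of 0.01. In its own ranked list replicate 1 had 27.9 there, with the summit 3 bp away, and replicate 2 had 22.5, with the summit 165 bp away. That summit is also 236 bp from the start of vps-51, which is transcribed the other way. At an IDR of 0.05 it counts as a promoter summit of lin-35.

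Of the MuvB genes, lin-54 had the strongest region. The gene lies on chromosome IV from 13241044 to 13243401 on the plus strand, and the summit at 13240693 was 351 bp upstream of its start, with a signal of 215 and an IDR of 1.02e-05. Replicate 1 gave 122 and replicate 2 gave 93.3 in their own thresholded lists, with summits 19 and 10 bp away. The next ranked region of the window had 32.1, in a coding exon, which makes the upstream one 6.70 times as strong. The summit sits much nearer to rpl-12, a large-subunit ribosomal protein gene transcribed the other way, whose start is 42 bp away. The deposited region is 177 bp wide and reaches 41 bp into rpl-12. Given to the nearest transcript start alone, this summit belongs to rpl-12 and not to lin-54.

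The promoter of lin-53, the worm RbAp48 histone-binding protein that also serves other chromatin complexes, had a summit with a signal of 106 and an IDR of 0.000206. The gene lies on chromosome I from 9618196 to 9619760 on the minus strand, and the summit at 9619994 was 234 bp upstream. Both replicates' thresholded lists held the region, with signals of 55.6 in replicate 1 and 53.4 in replicate 2. The replicate values at lin-53 lay close together. The summit lies at the middle of the 466 bp between lin-53 and nra-2, a gene for an endoplasmic reticulum protein related to nicalin, whose start is 233 bp away. Downstream of lin-53 lies its paralog rba-1, which had no conservative promoter summit and whose strongest ranked promoter signal was 24.1.

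The genes lin-9 and lin-52, both on chromosome III, had weaker promoter summits of nearly equal signal. For lin-9, which lies from 8900237 to 8904131 on the minus strand, the summit at 8904248 was 117 bp upstream, with a signal of 74.8 and an IDR of 0.00164. It was in neither replicate's thresholded list. The replicates' ranked lists gave 37.0 (IDR 0.0445) and 39.9 (IDR 0.0171), so both placed a region there and both fell short of the threshold alone. The nearest other start, that of the noncoding RNA gene ZK637.19, was 1340 bp off, and that of unc-32, a subunit of the vacuolar proton pump, 1367 bp. A second lin-9 region, in an intron 2918 bp past the start, had 50.1 and an IDR of 0.0445.

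The lin-52 gene, at 9824083 to 9824750 on the minus strand, is only 668 bp long. Its summit at 9824777 was 27 bp upstream, with a signal of 75.3 and an IDR of 0.00216, in the 126 bp between it and ZK632.9, which is transcribed in the same direction. Replicate 2 held this region in its thresholded list with 39.6, and replicate 1 had 34.8 in its ranked list only, at an IDR of 0.325. In replicate 1 the strongest region of the window was instead the one 598 bp upstream, with 36.5. In the joint list that region had 59.2 at an IDR of 0.0362, and it lies in an intron of ZK632.9, 84 bp from the start of that gene. The other joint thresholded list does not hold the lin-52 summit.

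The remaining gene of the core, lin-37, on chromosome III from 7070890 to 7072552, had the least signal of the MuvB genes. Its strongest ranked region, 212 bp past the start in a coding exon, had a signal of 37.3 at an IDR of 0.715. The joint list gives 2 replicate signals there, 7.69 and 28.2, without replicate numbers. Replicate 1's ranked list held no region in the lin-37 window, and replicate 2's strongest had 28.2 at an IDR of 0.0820. The upstream gene ZK418.5 ends 60 bp before lin-37 on the same strand.

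The replicates' own thresholded lists thus gave smaller counts than the joint list. Replicate 1 marked 3 of the 8 genes from 1000 bp upstream to the gene end, against 4.09% of all genes, and the same 3 in promoters, against 2.83%. Replicate 2 marked 4 of 8 in each, against 3.59% and 2.51% of all genes. The genes efl-1, lin-53 and lin-54 were marked by both, and lin-52 by replicate 2. The summits of lin-9 and lin-35 rest on the joint list.

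**Figure D2:**
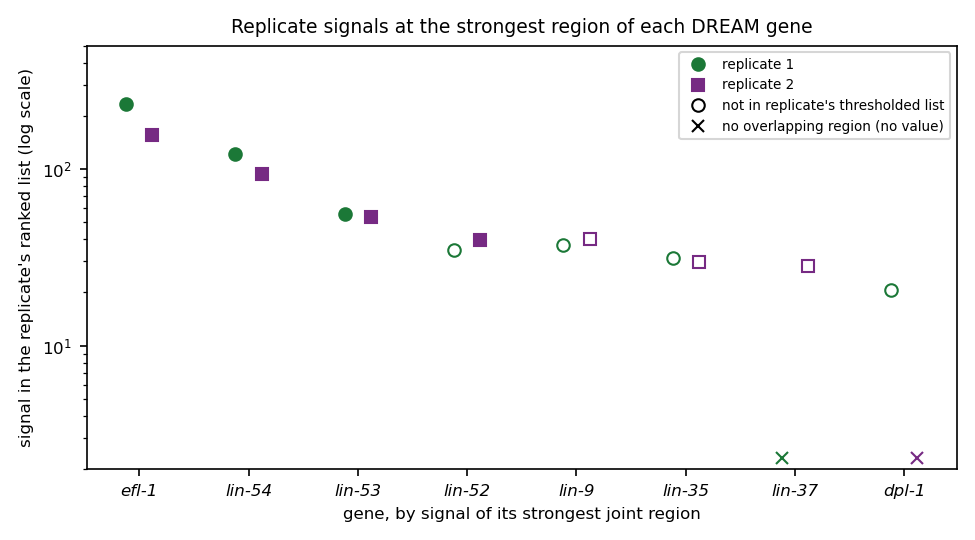
Each point is the signal, on a log axis, of the region of a replicate's own ranked list that overlaps the strongest joint region of a DREAM gene, with genes ordered by joint signal. Filled points are also in that replicate's thresholded list, open points are not, and crosses mark a replicate with no overlapping region, drawn at the foot of the axis without a value. The replicates keep the order efl-1, lin-54, lin-53 at the top, with replicate 1 at 232, 122 and 55.6 and replicate 2 at 157, 93.3 and 53.4.

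The ranked lists, which hold 79981 joint regions, let every member be placed among all genes whether marked or not. The strongest ranked promoter signal had a median of 16.9 over all 19973 protein-coding genes, with 12251 of them holding a region and the others set to 0, and a median of 75.1 over the DREAM genes. It was above the median of all genes in 7 of the 8 members and above their 95th percentile of 58.1 in 5. The share of all genes with a lower value was 99.9% for efl-1, 99.6% for lin-54, 98.4% for lin-53, 97.0% for lin-52 and 97.0% for lin-9. It was 76.2% for lin-35, 67.8% for dpl-1 and 49.0% for lin-37. Of the members without a promoter summit, lin-35 was thus above the upper quartile of 30.1, dpl-1 above the median and lin-37 just under it. The lin-37 value depends on the window and the list, since its strongest region lies 212 bp past the start, outside the promoter window. With the gene window the share of genes lower than lin-37 was 73.2%. In replicate 2's promoters it was 94.3% for lin-37 and 63.7% for dpl-1, while replicate 1 had no promoter region at either gene. Joint ranked regions had a median of 1.53 per kb of gene window at the members against 0.865 over all genes. All 8 members held regions, while over all genes 15238 of 19973 did, and the others entered that median as 0. Of the members, lin-35 was below 0.865 at 0.784, and lin-52 was highest at 2.40. In replicate 1 alone 5 members were above the 95th percentile of 34.2, and in replicate 2 alone 5 were above that of 29.6.

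**Figure D3:**
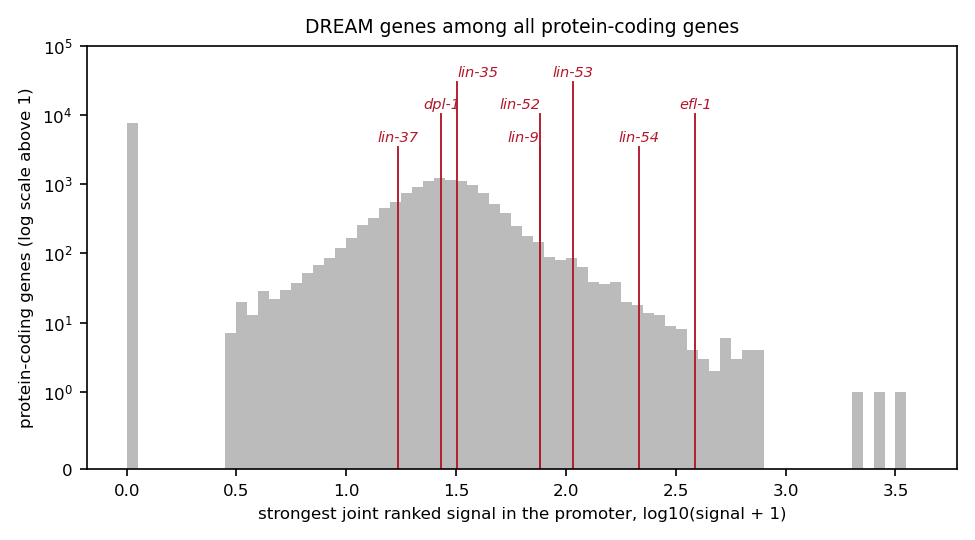
The grey histogram counts all protein-coding genes by their strongest joint ranked signal in the promoter, as log10(signal + 1), with genes that hold no region at 0 and a count axis that is logarithmic above 1. Red lines mark the 8 DREAM genes. From lin-9 and lin-52 upward 5 members lie in the right tail, and lin-37, dpl-1 and lin-35 lie in the bulk.

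Among the 854 genes with a conservative promoter summit, the signal of efl-1 ranked 25th, between nkcc-1 (401) and F56H6.2 (374). That of lin-54 ranked 77th, after iscu-1 and lact-9 (both 215) and before tag-115 (213), and that of lin-53 ranked 311th, between dnj-9 (106) and F43G6.16 (106). The lin-52 signal ranked 574th, between C25G4.3 (75.4) and tbx-40 (75.2), and lin-9 ranked 585th, between dpf-3 (74.9) and C01G8.1 (74.8). The median over these genes was 89.7, so efl-1, lin-54 and lin-53 were above it and lin-52 and lin-9 below. Promoter summits were more frequent on chromosome IV, the one of lin-54, at 9.30% of genes than on I (4.66%), III (4.32%) or V (3.02%).

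Of the 5 promoter summits, that of efl-1 also lies in the promoter window of fbxa-90, that of lin-53 in that of nra-2, and that of lin-54 in that of rpl-12. Only those of lin-9 and lin-52 fell in the promoter of no other protein-coding gene. How often promoter summits are shared in this way over all genes was not counted, so the sharing is not read as particular to DREAM genes. Given to the nearest protein-coding start alone, 3 of the 5 stayed with a DREAM gene, namely efl-1, lin-9 and lin-52. The lin-53 summit was nearly a tie, at 234 bp from its own start and 233 bp from that of nra-2. None of the 6 conservative summits lay near a tRNA, snRNA or snoRNA gene, the nearest such start being 1616 bp from the lin-54 summit. This is usual among marked genes. Without summits within 500 bp of such starts, the share of all genes with a gene-window summit was 5.27%, against 6.35% with them.

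The base composition at the summits varied. In the summit base with 50 bp on either side the A+T content was 48.5% at efl-1, 44.6% at lin-9 and 45.5% at lin-53, against 73.3%, 61.4% and 62.9% in windows 500 bp to either side. It was 59.4% at lin-54 (flanks 55.4%), 65.3% at lin-52 (47.5%) and 74.3% at lin-35 (72.3%). At efl-1, lin-9 and lin-53 it was thus well below the flanks and at lin-52 well above, while lin-54 and lin-35 were close to theirs. In a window of 51 bp lin-35 fell on the other side, at 66.7% against 73.5%. Over all 2134 conservative summits the median was 57.4%, against 64.4% in the flanks and 64.6% in the genome. The share of these summits with a lower A+T content was 9.28% for lin-9, 11.5% for lin-53, 20.01% for efl-1 and 53.9% for lin-54, and 71.4% for lin-52 and 94.3% for lin-35, so the members lay at both ends of the range.

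**Figure D4:**
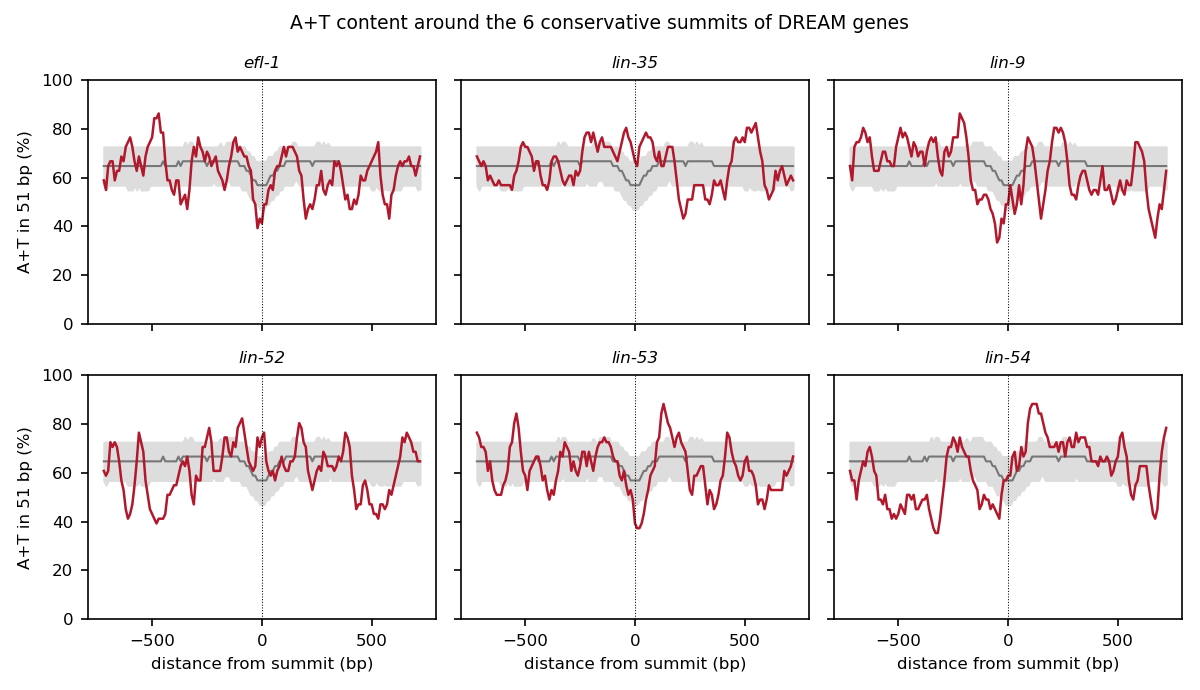
Each panel shows in red the A+T content in 51 bp windows around the conservative summit of 1 DREAM gene, by distance from the summit along the gene, with the median of all 2134 summits as a grey line and their quartiles shaded. At the dotted summit line the red line is below the grey one at efl-1, lin-9 and lin-53 (41.2%, 49.0% and 39.2%) and above it at lin-52 (74.5%) and lin-35 (66.7%).

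E2F-type sequences stood in 2 of the 6 summit windows, at efl-1 and lin-9, and in 4.59% of all conservative summit windows and 1.94% of the flanks. Taken singly, TTTCCCGC was in 1.22% of summit windows and TTTCGCGC in 1.97%. CHR-type sequences stood in 3 of the 6, at lin-9, lin-53 and lin-54, beside 25.4% of all summit windows and 31.6% of flanks. The A/T-only words stood in 2 of the 6, at efl-1 and lin-35, beside 30.3% of all summit windows and 35.8% of flanks. These are matches of letters in a short window, and binding of E2F or LIN-54 was not measured here.

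Of 40 other genes of the same pathways, in 5 lists, 1 had a conservative promoter summit, a share near the 4.28% of all protein-coding genes. It was ubc-9, the SUMO-conjugating enzyme, with a signal of 80.9 at an IDR of 0.00235 and its summit 208 bp upstream of the start, present in the thresholded list of replicate 1 (47.3) and in replicate 2's ranked list (30.8). In the replicates' own thresholded lists 2 of the 40 had a promoter summit in replicate 1, ubc-9 and epc-1, and 0 in replicate 2, against 2.83% and 2.51% of all genes. None of 11 genes of E2F and cell cycle entry, among them the cyclin genes cyd-1 and cye-1 and the kinase genes cdk-4 and cdk-2, had one. Nor did any of 4 synMuv A genes, 4 synMuv C genes of the Tip60 type or 8 genes that act against the synMuv B class, such as mes-4 and mrg-1. The other 12 synMuv B genes, including hpl-2, lin-13, lin-15B and met-2, had none either. With 4.28% of all protein-coding genes marked, 0 is an ordinary count for lists this short. The strongest ranked promoter signal had a median of 26.8 over the 40 genes, above the 16.9 of all genes and below the 75.1 of the DREAM genes. At cye-1 it was 48.7 and at lin-23, an F-box gene that limits cell division, 62.7, without a conservative summit at either.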

How the data were processed

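The authors deposited 8 peak lists on ce11 and no alignments were analysed here, per the labels and the deposited notes. The signal of a region, its score and its −log10 IDR are the authors' deposited values, and the signal served to describe and rank regions within a list. The aligner, the peak caller and the scaling of the signal are not stated in the labels or notes, and the depth per sample is unknown. Of the joint ranked lists, 14 replicate-level columns were not used. The conservative list holds 2134 of the 2267 joint ranked regions at a global IDR of 0.01 or less, and no region left out of it lies at a DREAM gene. Summits, counted from 1, were assigned to Ensembl gene models with Python 3.11.15 and pandas 2.3.3, and the assignment was tested on simulated data. All coordinates lay within the WBcel235 chromosomes. Overlap between replicates means at least 1 bp. The members, the 5 other gene lists and the motifs were chosen with earlier results of these data known. Named genes are the members, their nearest neighbours, the genes next in signal order, marked genes of the 5 lists, and rba-1, vps-51, ZK418.5, epc-1, cye-1, lin-23 and the unmarked list genes given as examples, which were named after their values were seen.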

Additional observations from a re-analysis of the deposited data

How the results depend on the processing

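No paired analysis was possible because the design has a single group. The counts of marked members were recomputed under 13 other settings, of which ending promoters 0 bp downstream of the start was added after seeing the data. That setting and the gene start change promoter windows only. With 500 or 2000 bp upstream, any overlap of the region, or without summits near short RNA genes, the counts stayed at 6 and 5. The promoter count was also 5 with the gene start and with promoters ending 0 bp downstream, against 3.96% and 3.91% of all genes. The gene-window count fell to 3 at an IDR of 0.001, to 3 among summits in both replicates' own lists and to 3 with the nearest start only, and ranged from 3 to 4 with 1 replicate left out. The promoter count likewise fell to 3 under each of those settings and ranged from 3 to 4 with 1 replicate left out. The members at an IDR of 0.001 and in both replicates were efl-1, lin-53 and lin-54, whereas those by nearest start were efl-1, lin-9 and lin-52. The other joint list gave 5 and 4, without lin-52, against 6.77% and 4.61% of all genes. An IDR of 0.05 gave 6 and 6, lin-35 entering the promoter count.

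The share of all genes with a summit in the gene window was 3.27% at an IDR of 0.001, 11.0% at 0.05 and 2.58% for summits in both replicates, and ranged from 3.59% to 4.09% with 1 replicate left out. For promoters these were 2.27%, 7.03% and 1.83%, and 2.51% to 2.83%. With the nearest start only the shares were 4.82% and 3.30%, against 6.35% and 4.28%, a smaller fall than that of the members' counts. Those counts are of few genes, and lin-53 left them by the near tie with nra-2, so the difference is not read further. With 1 replicate left out the strongest signals are on the remaining replicate's own scale, from 157 to 232 at efl-1, 93.3 to 122 at lin-54, 53.4 to 55.6 at lin-53, 36.5 to 39.6 at lin-52, 37.0 to 39.9 at lin-9, 22.5 to 31.5 at lin-35 and 19.6 to 20.7 at dpl-1, and 28.2 at lin-37, where replicate 1 gave no value. The replicates' strongest regions at lin-35, lin-52 and dpl-1 were not the same place, and the 22.5 at lin-35 is replicate 2's upstream region, because the summit of its 29.7 region fell just past the gene end. Ranking lin-37 regions by IDR picked one with a signal of 2.68, and changed no other member's region. The median A+T content at the 6 summits was 54.0%, against 53.9% in the narrower and 58.0% in the wider window, and 49.5% and 59.9% at the replicates' own summits. The unknown depth limits what the absence of a summit at dpl-1 and lin-37 can show, and no input was compared.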
